A study of Bos taurus with 6 samples.

Results

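SULT1A1, MGST1, ALDH2, AOC3, QPRT and SELENOP are 6 genes whose transcripts lay lower in bovine aortic endothelial cells exposed to TGF-beta 1. The array annotation assigns 8 of the 24016 probe sets analysed to them, 3 to AOC3 and 1 to each of the others, among 9155 genes that carry a single symbol. The cells were primary cultures freed from bovine aorta with collagenase and grown in RPMI medium. The TGFB group held 3 arrays of cultures given 5 ng/ml TGF-beta 1 for 24 hours, and the Basal group held 3 arrays of untreated cultures, so that 1 dose and 1 time were sampled. The labels speak of triplicates from different cultures, without saying whether the cultures came from separate animals or whether a treated and an untreated array shared one, so p-values measure the spread between these arrays.

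Endothelial cells sense the cytokine TGF-beta 1 through paired type I and type II receptors, which act on genes through SMAD proteins. The 6 genes serve the disposal of reactive small molecules and the supply of cofactors. SULT1A1 is a cytosolic enzyme that transfers sulfate to phenols, and MGST1 is a membrane-bound glutathione transferase that also reduces lipid hydroperoxides. ALDH2 is the mitochondrial aldehyde dehydrogenase that clears acetaldehyde and the aldehydes of lipid peroxidation. AOC3, also known as vascular adhesion protein, is a copper amine oxidase of the cell surface that releases hydrogen peroxide and takes part in leukocyte adhesion. QPRT turns quinolinate into a precursor of NAD, and SELENOP is the secreted selenoprotein that carries selenium between tissues.

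The genes were chosen from the comparison of treated with untreated arrays, so their own differences are given as a description and not as a test. Each value is a log2 expression from the RMA procedure, which corrects background, equalizes the distribution of the arrays and sums the probes of a probe set. A gene with several probe sets is represented by the one with the highest mean over the 6 arrays. A difference is the mean of the TGFB arrays minus the mean of the Basal arrays, with the standard error (SE) of a limma fit over all probe sets. The data do not tell fewer cells that express a gene from less RNA per cell.

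Across all arrays the medians lay between 5.88 and 5.92 and the maxima between 13.93 and 14.03. The leading principal component, with 63.4% of the variance, did not separate the 2 groups. TGFB 1, Basal 1 and Basal 2 had negative scores of -10.3, -67.8 and -38.8. TGFB 2, TGFB 3 and Basal 3 had positive scores of 39.5, 41.4 and 36. Within each of these sets the TGFB arrays had higher scores than the Basal arrays. The second component, with 24.7%, set TGFB apart from Basal arrays. The signal of the 3′ probe set of actin exceeded that of its 5′ probe set, a measure of RNA integrity, by 1.31 to 1.86 in TGFB arrays and by 1.31 to 1.70 in Basal arrays. In the limma test 158 probe sets passed an adjusted p of 0.05, 73 higher (0.304% of all probe sets) and 85 lower (0.354%) in TGFB arrays (57 higher and 43 lower after a further quantile normalization).

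**Figure D1:**
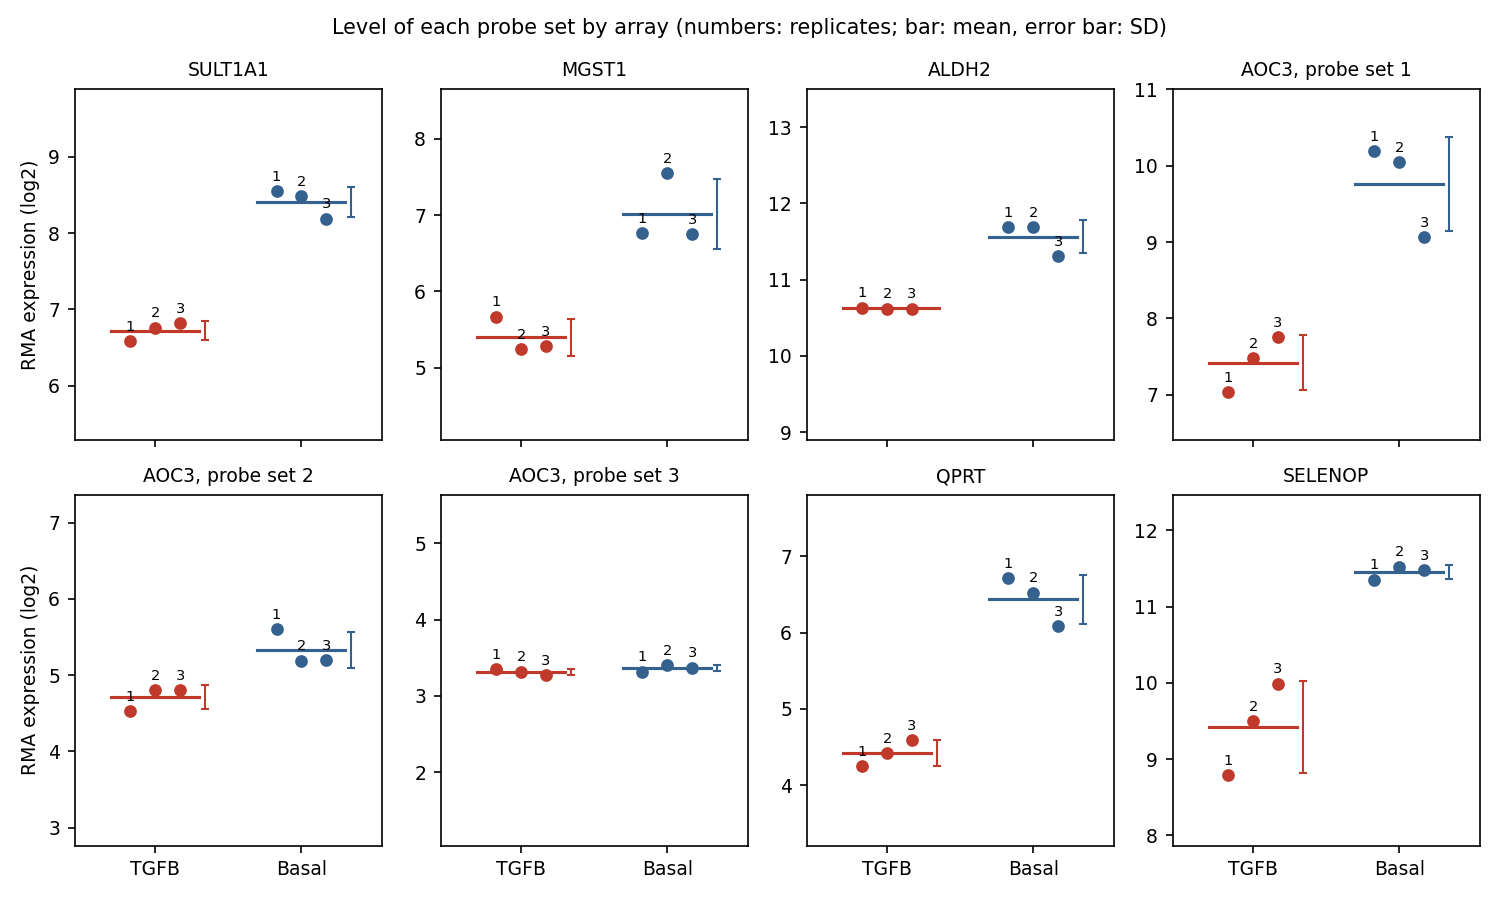
RMA expression (log2, vertical axis, of the same height in every panel) of the 8 probe sets in the TGFB and Basal arrays, with the replicate number at each point, the group mean as a line and the SD as an error bar. In 7 of the 8 panels the 3 TGFB points lie below the 3 Basal points, and the groups overlap for the third probe set of AOC3.

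SULT1A1 (Entrez gene 282485) gave 6.58, 6.76 and 6.82 in TGFB 1 to 3, against 8.55, 8.48 and 8.19 in Basal 1 to 3. The groups did not overlap, and the spread within each was narrow, with Basal 3 lowest among the untreated arrays. The means were 6.72 ± 0.13 in TGFB arrays and 8.41 ± 0.19 in Basal arrays (SD, n = 3 each), a difference of -1.68 (SE 0.13), or 31.1% of the untreated signal.

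MGST1 (Entrez gene 493719) stood at 5.67, 5.24 and 5.28 in TGFB 1 to 3, against 6.76, 7.55 and 6.75 in Basal 1 to 3. Basal 2 was the high array here, and TGFB 1 was the highest treated array, unlike for SULT1A1. The groups were apart by 1.08 at their closest arrays, while the Basal arrays ranged over 0.80. The means were 5.40 ± 0.24 in TGFB and 7.02 ± 0.46 in Basal arrays, a difference of -1.62 (SE 0.26), which is 3.07-fold lower in TGFB arrays.

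ALDH2 (Entrez gene 508629) read 10.63, 10.62 and 10.62 in TGFB 1 to 3, against 11.69, 11.69 and 11.31 in Basal 1 to 3. The treated arrays ranged over 0.0036, far less than the 0.38 of the Basal arrays, and the groups were apart. The difference of -0.94 (SE 0.13), 1.92-fold lower, was the smallest of the 6. This probe set lay high in the signal range of the array, at percentiles 96.4 to 96.5 of all probe sets in TGFB arrays and 98 to 98.7 in Basal arrays.

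The brightest probe set of AOC3 (Entrez gene 281002) gave 7.03, 7.48 and 7.75 in TGFB 1 to 3, against 10.19, 10.05 and 9.06 in Basal 1 to 3. The groups did not overlap, though Basal 3 was the lowest untreated array, 1.13 below the highest. The means of 7.42 ± 0.36 in TGFB and 9.77 ± 0.61 in Basal arrays differed by -2.35 (SE 0.35), the largest difference of the 6 genes, 5.09-fold lower. It ranked 9 among the 9155 genes in order of decrease. The second AOC3 probe set, at percentiles 23.8 to 30.2 in TGFB and 37.2 to 44.7 in Basal arrays, gave 4.53, 4.80 and 4.80 in TGFB arrays and 5.60, 5.19 and 5.20 in Basal arrays, a difference of -0.62 (SE 0.15). The third stayed near the floor of the array, at percentiles 1.68 to 2.71 in TGFB and 2.10 to 3.65 in Basal arrays, with 3.35, 3.32 and 3.27 in TGFB arrays and 3.32, 3.40 and 3.37 in Basal arrays. Its groups overlapped and its difference was -0.05 (SE 0.08). Over the mean of all 3 probe sets the difference was -1.01.

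QPRT (Entrez gene 614254) measured 4.25, 4.42 and 4.59 in TGFB 1 to 3, against 6.71, 6.52 and 6.08 in Basal 1 to 3. The groups were apart, and the probe set lay at percentiles 18.6 to 26.1 of all probe sets in TGFB arrays and 53.2 to 64.3 in Basal arrays. The means were 4.42 ± 0.17 in TGFB and 6.44 ± 0.32 in Basal arrays, a difference of -2.02 (SE 0.19). Without a detection call in RMA values it is unknown whether the treated signal exceeded background, and the ratio of 4.05 depends on it.

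SELENOP (Entrez gene 282066) stood at 8.79, 9.50 and 9.99 in TGFB 1 to 3, against 11.35, 11.52 and 11.48 in Basal 1 to 3. The untreated arrays agreed within 0.17 and included Basal 3, whereas the treated arrays ranged over 1.20. The means were 9.43 ± 0.60 in TGFB and 11.45 ± 0.09 in Basal arrays, a difference of -2.02 (SE 0.30), 4.07-fold lower. The treated arrays were the more widely spread for SELENOP, and the untreated ones for the other 5 genes.

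Of the 6 genes SULT1A1, ALDH2 and QPRT passed the limma threshold over all probe sets and MGST1, AOC3 and SELENOP did not. ALDH2 no longer passed after a further quantile normalization, with limma-trend, with robust eBayes or with either filter on low values, and none of the 6 passed when any array but Basal 3 was left out. Over all represented genes 0.644% were called lower, and since this comparison chose the genes, nothing is read from their count. All treated arrays lay below all untreated ones in each of the 6, as in 15.1% of the represented genes.

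The array split seen on the first principal component touched the genes unequally. Within the set of TGFB 1, Basal 1 and Basal 2 the difference was -3.09 for AOC3, and within the set of TGFB 2, TGFB 3 and Basal 3 it was -1.45. SELENOP gave -2.65 in the first set and -1.73 in the second, QPRT -2.36 and -1.58, SULT1A1 -1.93 and -1.40, and ALDH2 -1.06 and -0.69. MGST1 gave -1.48 and -1.49. Each gene was lower in the treated arrays of both sets, as it had to be, since its groups did not overlap. In 5 of the 6 the difference was smaller in the second set, a pattern that was not tested. Basal 3 was the lowest untreated array for 5 of the 6 genes and TGFB 1 the lowest treated array for 4. Deviations from the group means ran together over the 6 arrays for SULT1A1, ALDH2, AOC3 and QPRT, with correlations of 0.82 to 0.99 between them. Those of MGST1 lay at 0.10 or below with SULT1A1, AOC3 and QPRT, and at 0.44 with ALDH2. Those of SELENOP with the other 5 genes ranged from -0.31 to 0.48. These correlations describe 6 arrays that share the split.

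**Figure D2:**
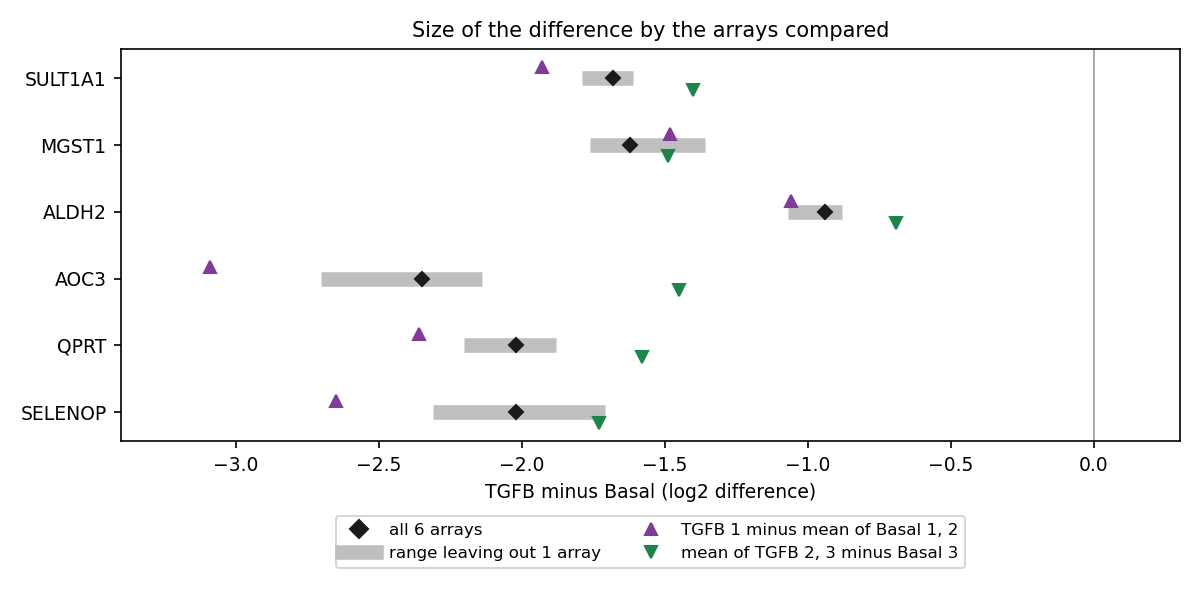
Log2 difference of TGFB minus Basal arrays (horizontal axis) for the 6 genes, over all 6 arrays (diamond), over the fits that leave out 1 array (grey bar), and within the sets of TGFB 1 with Basal 1 and 2 (upward triangle) and of TGFB 2 and 3 with Basal 3 (downward triangle). All values are below 0, as they must be for groups that do not overlap, and the triangles lie farthest apart for AOC3, at -3.09 and -1.45.

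The other members of the same enzyme families and pathways were not fixed by the choice of the 6 genes. Their lists were drawn up with earlier results of these data known. Of 149 related genes measured, LOXL4 was the 1 that passed the limma threshold, upward, and none passed downward, although 21 were lower and 13 higher at an unadjusted p under 0.05, as were 12.2% and 6.19% of all represented genes. Over all represented genes 0.371% were called higher and 0.644% lower, so nothing is read from 1 call among the 149. The rise of LOXL4, at 5.50, was also the largest over all represented genes. The median difference of the related genes was -0.07, beside -0.03 over all represented genes. Differences below 0 were found in 96 of them and in 55.6% of all represented genes. Their treated arrays lay wholly below the untreated ones in 25 and wholly above in 17, against 15.1% and 8.18% of all represented genes.

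Sulfate transfer needs the donor PAPS and is reversed by sulfatases. Of 10 measured genes of this group other than SULT1A1 none was called by limma (1 lower and 2 higher at an unadjusted p under 0.05), 4 differences were below 0 and the median was 0.01. SULT1B1, a sulfotransferase of phenols and thyroid hormones, lay on the other side from SULT1A1, with 8.66, 7.91 and 7.87 in TGFB 1 to 3 and 6.10, 7.50 and 6.93 in Basal 1 to 3. Its arrays did not overlap between groups, and its difference of 1.30 (SE 0.40) did not pass (limma adjusted p = 0.235). The lysosomal sulfatases ARSB and ARSA stood at 0.48 (SE 0.13) and -0.40 (SE 0.14), with limma adjusted p = 0.189 and 0.290. PAPSS1, which makes PAPS, was at -0.01 (SE 0.23) and is named here outside the rule for named genes, after its value was seen. SULT2B1, SULT2A1, SULT1E1 and SULT4A1, likewise outside the rule, lay between -0.01 and 0.03. The group means of SULT2A1, SULT1E1 and SULT4A1 were 3.29 to 4.40, below the 25th percentile of the arrays (4.52 to 4.60). A fall in these could hardly have been seen.

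Glutathione transferases join glutathione to reactive compounds. Of 15 measured genes of this group beside MGST1, 14 had differences below 0 and none was called by limma (3 lower and 1 higher at an unadjusted p under 0.05), with a median of -0.15. MGST3, a membrane-bound relative of MGST1, gave 9.52, 10.43 and 10.27 in TGFB 1 to 3, against 11.59, 11.71 and 11.42 in Basal 1 to 3. The groups were apart and TGFB 1 was the lowest array, where it had been the highest treated array for MGST1. Its difference was -1.50 (SE 0.25, limma adjusted p = 0.0751). MGST2 gave 6.63, 6.77 and 6.71 in TGFB arrays and 7.13, 7.10 and 7.04 in Basal arrays, a difference of -0.38 (SE 0.09, limma adjusted p = 0.126). The cytosolic transferase GSTT1 gave 8.08, 8.34 and 8.34 in TGFB arrays and 8.99, 9.02 and 8.88 in Basal arrays, a difference of -0.71 (SE 0.11, limma adjusted p = 0.0625). With the 2 array sets as a block both MGST3 and GSTT1 passed (limma adjusted p = 0.0208 and 0.0230), and they also passed without Basal 3. The highest limma adjusted p among their alternatives was 0.302 for MGST3 and 0.280 for GSTT1. That block was chosen with earlier results of these data known.

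Aldehydes are cleared by a family of dehydrogenases and by reductases. Beside ALDH2, 25 genes of this group were measured, none was called by limma (5 lower and 2 higher at an unadjusted p under 0.05) and the median was -0.18. ALDH16A1 stood at -0.74 (SE 0.15) and DHRS3, which reduces retinal, at -0.99 (SE 0.24), with limma adjusted p = 0.109 and 0.151. With the array set block both passed (limma adjusted p = 0.0321 and 0.0134), as they did without Basal 3, and their highest value among the alternatives was 0.360 and 0.455. ALDH18A1, an enzyme of proline synthesis, stood at 0.49 (SE 0.11, limma adjusted p = 0.121). ALDH1A1, the cytosolic retinal dehydrogenase and named after its values were seen, gave 10.67, 10.89 and 10.69 in TGFB 1 to 3, against 8.23, 7.84 and 9.98 in Basal 1 to 3. Basal 3 lay nearer to the treated arrays than to the other untreated ones. The difference of 2.07 (SE 0.55) did not pass (limma adjusted p = 0.174), and without Basal 3 it was 2.71 (limma adjusted p = 0.00733, and as high as 0.491 among the alternatives).

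AOC3 belongs to the copper amine oxidases, and lysyl oxidases use copper in a similar reaction on collagen and elastin. Of 9 other measured amine oxidases LOXL4 alone passed, with 11.07, 11.00 and 10.79 in TGFB 1 to 3 and 6.25, 4.86 and 5.25 in Basal 1 to 3. It rose by 5.50 (SE 0.35, limma adjusted p = 0.0224), 45.3-fold higher in TGFB arrays. The alternatives gave LOXL4 a limma adjusted p of 0.00493 to 0.168, and it did not pass when TGFB 1, TGFB 2, TGFB 3 or Basal 2 was left out. AOC2, a copper amine oxidase known from retina, gave 6.52, 7.02 and 7.25 in TGFB 1 to 3, against 7.87, 7.73 and 7.96 in Basal 1 to 3. The groups were apart, with TGFB 1 lowest as for AOC3, and the difference was -0.92 (SE 0.20, limma adjusted p = 0.119). In the ARS-UCD2.0 table of RefSeq genes, AOC2 and SAO, the serum amine oxidase, are the protein-coding neighbours of AOC3. These genes are related in sequence, whether the probe sets tell them apart was not tested, and SAO was not analysed here. The mitochondrial monoamine oxidase MAOA stood at -1.10 (SE 0.31, limma adjusted p = 0.197), MAOB at -0.08 (SE 0.13), and the polyamine oxidase PAOX at -0.48 (SE 0.15, limma adjusted p = 0.244). MAOB lies outside the rule for named genes. With the array set block AOC2 and MAOA passed (limma adjusted p = 0.0165 and 0.0164), and without Basal 3 PAOX did (limma adjusted p = 0.0447). The highest limma adjusted p among the alternatives was 0.353 for AOC2, 0.538 for MAOA and 0.617 for PAOX.

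**Figure D3:**
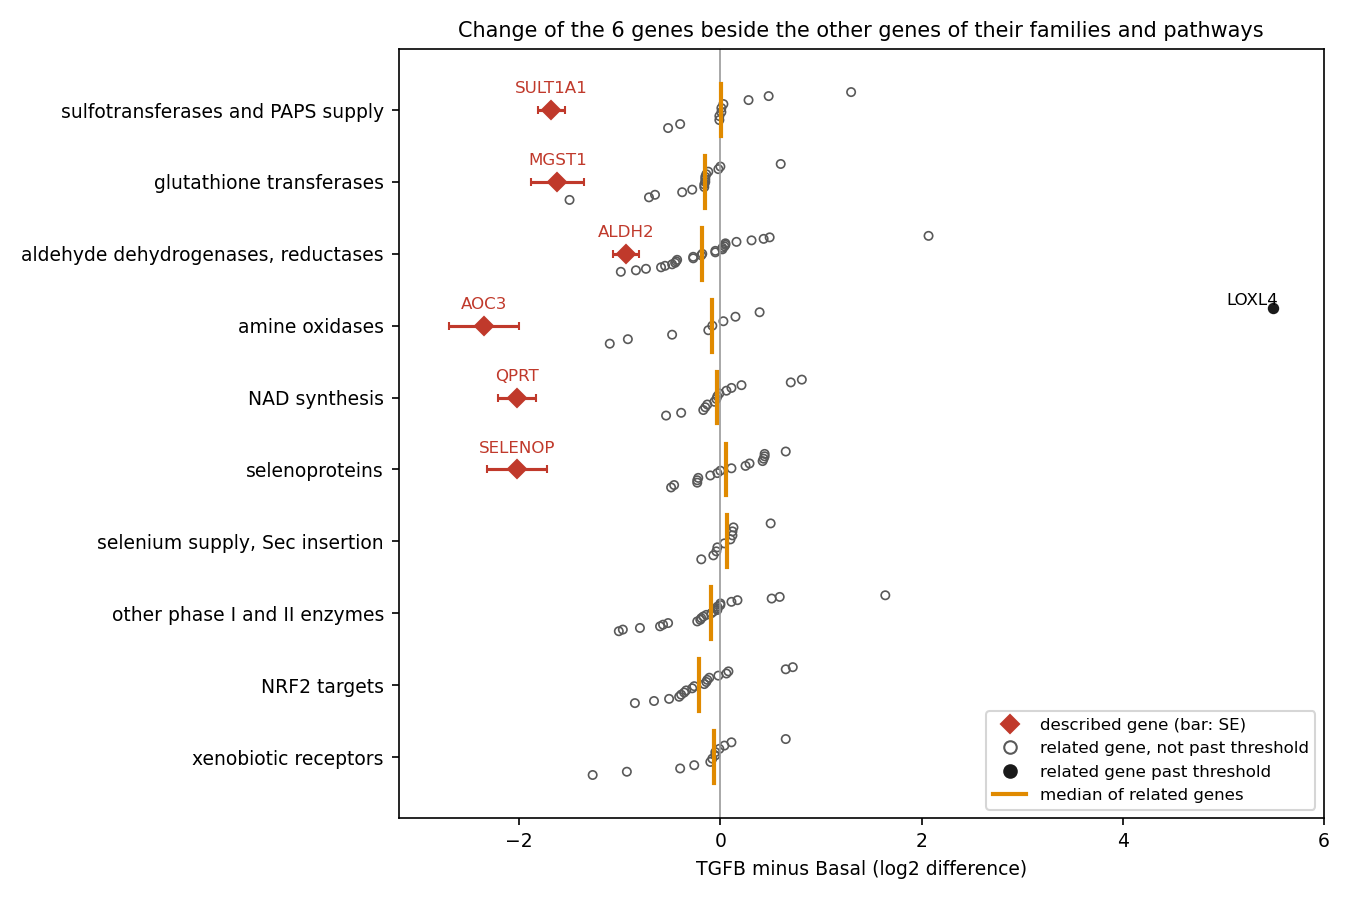
Log2 difference of TGFB minus Basal arrays (horizontal axis) for the 6 genes (red diamonds, with SE) and for the related genes of 10 lists (circles, filled where the limma adjusted p was under 0.05), with the median of each list as an orange bar. LOXL4, at 5.50, is the single filled circle, and the list medians lie between -0.21 and 0.07.

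NAD is made from tryptophan through quinolinate and QPRT, or salvaged from nicotinamide and nicotinic acid. Of 14 other genes measured in this group none was called by limma (0 at an unadjusted p under 0.05). The treated arrays lay wholly below the untreated ones in none, and the median was -0.04. KYNU, KMO, ACMSD and TDO2 of the tryptophan route, named outside the rule, had group means of 3.23 to 3.38. The 25th percentile of the arrays was 4.52 to 4.60, so a fall in these genes could hardly have been seen. NAMPT and NAPRT, which open the salvage from nicotinamide and from nicotinic acid, stood at 0.81 (SE 0.36) and -0.54 (SE 0.24), and NMNAT1, which completes NAD in the nucleus, at 0.70 (SE 0.32). Their limma adjusted p ran from 0.403 to 0.425, and the groups overlapped in all 3. Without Basal 3 all 3 passed, with limma adjusted p between 0.0296 and 0.0388, and as high as 0.784 among the alternatives.

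Selenoproteins hold selenocysteine, which is inserted at a stop codon by dedicated factors. Among 16 measured selenoproteins other than SELENOP none was called by limma (4 higher and 0 lower at an unadjusted p under 0.05), the median was 0.06, and the treated arrays lay wholly above the untreated ones in 4 and wholly below in 1. SELENOK and SELENOS, both of the endoplasmic reticulum membrane, stood at 0.44 (SE 0.10) and 0.42 (SE 0.13), and the thioredoxin reductase TXNRD1 at 0.65 (SE 0.19). The limma adjusted p of these 3 lay between 0.121 and 0.231. TXNRD1 passed with the array set block (limma adjusted p = 0.0152, and as high as 0.459 among the alternatives) and SELENOK without Basal 3 (limma adjusted p = 0.0445, and as high as 0.403). The glutathione peroxidases GPX1 and GPX4, named outside the rule, stood at -0.10 (SE 0.16) and -0.23 (SE 0.13). Of 10 genes of selenium supply and selenocysteine insertion none was called by limma (0 at an unadjusted p under 0.05) and the median was 0.07. The smallest unadjusted p values in that group were those of EIF4A3 at -0.19 (SE 0.09) and NCL at 0.50 (SE 0.32), which bind selenoprotein messages, and of SEPHS1 at 0.13 (SE 0.10). LRP8, a receptor that takes up SELENOP in mouse brain and testis and is named outside the rule, was at -0.07 (SE 0.18).

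Other enzymes of drug and steroid metabolism, with 23 measured, had a median of -0.09 and no limma call (3 lower and 1 higher at an unadjusted p under 0.05). UGDH, which makes the glucuronic acid donor, stood at 1.64 (SE 0.40), the sterol hydroxylase CYP27A1 at -0.97 (SE 0.30) and the epoxide hydrolase EPHX1 at -0.57 (SE 0.16), with limma adjusted p of 0.153, 0.234 and 0.203. Of 18 targets and partners of NRF2, the transcription factor of the antioxidant response, none was called by limma (4 lower and 2 higher at an unadjusted p under 0.05), 14 were below 0 and the median was -0.21. ME1, a source of NADPH, stood at 0.72 (SE 0.15), while the quinone reductase NQO1 and the ferritin chain FTL stood at -0.66 (SE 0.17) and -0.41 (SE 0.11). Of 12 receptors, partners and related factors in the control of detoxifying genes, none was called by limma. At an unadjusted p under 0.05, 2 were lower and 1 was higher, and the median was -0.06. The oxysterol receptor NR1H3 stood at -1.27 (SE 0.31) and its partner RXRA at -0.93 (SE 0.26), with limma adjusted p of 0.152 and 0.195. TIPARP, a target of the aryl hydrocarbon receptor, stood at 0.65 (SE 0.23). With the array set block UGDH, ME1, NQO1 and RXRA passed, with limma adjusted p of 0.0312, 0.0368, 0.0410 and 0.0397. Without Basal 3 UGDH, RXRA, CYP27A1, EPHX1, FTL, NR1H3 and TIPARP passed, with limma adjusted p from 0.0105 for NR1H3 to 0.0405 for FTL. Among the alternatives the highest limma adjusted p of these 9 genes ran from 0.360 for ME1 to 0.649 for TIPARP.

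The genes whose profile over the 6 arrays was most like the mean of the 6 centred profiles, among 9149 others, were TYMS, PNMA1, ENPP2, SLC17A5 and SOCS2, with Pearson correlations of 0.9990, 0.9964, 0.9962, 0.9946 and 0.9943. TYMS, which makes thymidylate, gave 8.21, 8.41 and 8.44 in TGFB arrays and 9.69, 9.75 and 9.41 in Basal arrays. The correlations span 6 arrays that share the treatment contrast and are a description. The closest to SULT1A1 were ENPP2 and C3H1orf43, to MGST1 TCEAL1 and RALB, to ALDH2 TEX264 and PNP, to AOC3 SEPTIN4 and CIAPIN1, to QPRT PSRC1 and NTHL1, and to SELENOP IDH1 and HYI, with correlations from 0.9933 to 0.9993.

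The arrays carried the signal of endothelial cells. PECAM1 read 11.73 to 11.84 in TGFB and 12.08 to 12.43 in Basal arrays, and CDH5 read 11.37 to 11.75 in TGFB and 11.76 to 12.34 in Basal arrays. The probe set of VWF lay at 5.99 to 6.05 in TGFB and 6.05 to 6.33 in Basal arrays, and that of KDR at 4.39 to 4.51 in TGFB and 4.66 to 5.50 in Basal arrays. KDR in each TGFB array lay below the 25th percentile of those arrays, which was 4.53 to 4.60. Of 12 measured endothelial markers CLDN5, a tight junction protein, fell by 3.17 (SE 0.42, limma adjusted p = 0.0474, and 0.00733 to 0.254 among the alternatives), and no other passed. CLDN5 did not pass when any array but Basal 3 was left out, nor after a further quantile normalization, with robust eBayes or with the replicate number as a block. EMCN, ENG and ROBO4 stood at 0.82 (SE 0.20), 0.99 (SE 0.38) and 0.75 (SE 0.35), with all TGFB arrays above all Basal arrays and limma adjusted p = 0.151, 0.333 and 0.426. PECAM1, CDH5, VWF, KDR, CLDN5 and ERG had all TGFB arrays below all Basal arrays, and TEK, TIE1 and EGFL7 overlapped. For VWF the groups met at 6.05 when rounded, with a difference of -0.17 (SE 0.10, limma adjusted p = 0.540). Over all represented genes 15.1% lay wholly below and 8.18% wholly above. AOC3 is abundant in smooth muscle and fat cells, and SELENOP in liver. The linear signal summed over 7 smooth muscle markers was 4396 to 5695 in TGFB and 1361 to 1696 in Basal arrays, and TAGLN alone of them passed, rising by 2.19 (SE 0.16, limma adjusted p = 0.0273, and 0.00523 to 0.168 among the alternatives). TAGLN did not pass when any array but Basal 3 was left out or with the replicate number as a block. The other 6 had differences of -0.26 to 0.20, and without TAGLN the sum was 468 to 562 in TGFB and 483 to 539 in Basal arrays. Over 4 adipocyte markers the sum was 165 to 175 in TGFB and 196 to 293 in Basal arrays, and over 8 hepatocyte markers it was 1909 to 2277 in TGFB and 2451 to 2963 in Basal arrays, with no call in either list. LIPE stood at -0.79 (SE 0.20), and without it the adipocyte sum was 80 to 91 in TGFB and 85 to 99 in Basal arrays. APOA1 stood at -1.34 (SE 0.33) and ALB at -0.05 (SE 0.11), and without APOA1 the hepatocyte sum was 1677 to 1772 in TGFB and 1629 to 1908 in Basal arrays. Most of that sum was ALB, which read 10.24 to 10.38 in TGFB and 10.26 to 10.52 in Basal arrays. ALB has 9 probe sets, and 3 of the others shared the sign of the one used. The fibroblast sum over 7 markers was 3145 to 5285 in TGFB and 2620 to 3082 in Basal arrays, with no call and a median difference of 0. COL1A2 stood at 0.93 (SE 0.33) and FBLN1 at -1.04 (SE 0.58), and without COL1A2 the sum was 462 to 814 in TGFB and 512 to 1288 in Basal arrays. Sums over 5 leukocyte markers were 211 to 285 in TGFB and 215 to 233 in Basal arrays, and over 6 epithelial or mesothelial markers 200 to 226 in TGFB and 203 to 257 in Basal arrays. The markers LUM and DPT of fibroblasts, CIDEC of adipocytes, APOB of hepatocytes, PTPRC and CD3E of leukocytes and EPCAM and KRT8 of epithelium stayed below the 25th percentile of every array. The part of other cells in the differences of the 6 genes was not tested.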

How the data were processed

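The deposited values are log2 expression per probe set of an Affymetrix bovine array, 1 column per sample, made from 4 µg of total RNA per the labels' protocols and, per the submitters' processing notes, processed with RMA and affy (versions not given in the sources used here). Each column was assigned by its sample accession. Of 24128 probe sets in the table, 112 controls were left out. The annotation gave 1 symbol for 13292 of the rest, several for 86 and none for 10638. The RefSeq gene table (ARS-UCD2.0) matched 13263 by gene identifier, changed 0 symbols and served for names and neighbours. The annotation names no build, so no coordinates are given. The number of arrays limits precision.

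The comparison used limma 3.58.1 and R 4.3.3 (lmFit, eBayes, group as the only term, 4 residual and 1.97 prior degrees of freedom), with two-sided p-values. The Benjamini-Hochberg adjustment covered all 24016 probe sets, with a threshold of 0.05. The fit was run on simulated data with independent noise and no array split, so that run does not cover the split seen here. An exact permutation test of 3 against 3 arrays cannot give a p below 0.1. Named were all probe sets of the 6 genes, from each of 10 related lists the called genes and the 3 others with the smallest unadjusted p, the 5 genes most alike to the mean profile and the 2 most alike to each gene. The genes and lists were chosen with earlier results of these data known. Alternatives tried were limma-trend, robust eBayes, filters at the 25th and 50th percentiles of the mean, median centring of arrays, quantile normalization once more, a replicate block, leaving out each array, other ways to represent a gene, other thresholds and, added after seeing the data, the array sets as a block. Figures were drawn with matplotlib 3.10.9.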

Additional observations from a re-analysis of the deposited data

How the results depend on the processing

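The 6 genes were lower in TGFB arrays in all 101 values over the alternatives run, and 100 of these lay within 1 SD of the reported difference. The exception was AOC3 over the mean of its 3 probe sets, at -1.01. The genes were chosen from this contrast and their groups did not overlap, so leaving out an array could not change the sign. The replicate block, limma-trend and robust eBayes act on the SE and not on the difference. Nothing is therefore read from these counts. Leaving out 1 array gave -1.79 to -1.61 for SULT1A1, -1.76 to -1.36 for MGST1, -1.07 to -0.88 for ALDH2, -2.70 to -2.14 for AOC3, -2.20 to -1.88 for QPRT and -2.31 to -1.71 for SELENOP. QPRT has no value above the 50th percentile filter. By limma 3 of the 6 passed as reported, and 2 (SULT1A1 and QPRT) after a further quantile normalization, with limma-trend or with robust eBayes. Above the 25th percentile filter 4 passed, and above the 50th 3 did (ALDH2 in neither). All 6 passed with 1 probe set per gene fitted, with a gene's probe sets averaged, without Basal 3 or with an array set block. Without any other single array 0 passed (all 6 at an unadjusted p under 0.05). Since this comparison chose the genes, nothing is read from these counts or p-values. The probe sets past the limma threshold numbered 158 as reported, 100 after a further quantile normalization, 87 with limma-trend, 543 at a threshold of 0.1, 2 at 0.01, 1348 under the array set block, and 1 to 2012 when 1 array was left out (2012 without Basal 3, 12 without TGFB 1, 2 without Basal 1, 1 without Basal 2, TGFB 2 or TGFB 3). The related genes past it numbered 1 as reported, 2 over the mean of a gene's probe sets, 3 at 0.1, 0 at 0.01, 15 under the array set block, and 0 to 31 when 1 array was left out, with 31 without Basal 3, 1 without Basal 1 and 0 without Basal 2, TGFB 1, TGFB 2 or TGFB 3 (23, 30, 27 and 26 at an unadjusted p under 0.05). In the fit without Basal 3 the untreated arrays all lie in 1 array set. With the replicate number as a block 0 probe sets, 0 related genes and 0 of the 6 passed by limma. At an unadjusted p under 0.05 these were 4450, 43 and 6, where the 6 had been chosen from this contrast. Same-numbered arrays deviated from their group means with correlations of 0.67, -0.45 and 0.69. Deviations within a group of 3 sum to 0 and follow the array split, so these values cannot tell whether the arrays were paired. By these deviations TGFB 1 correlated best with Basal 1 and TGFB 3 with Basal 3, but TGFB 2 correlated best with Basal 3 and not with its own number. By the expression values TGFB 1 correlated best with Basal 2, at 0.974, against 0.963 with Basal 1. Above the 50th percentile filter the list medians were 0.13 for sulfotransferases, -0.28 for glutathione transferases and -0.13 for NAD synthesis. They were 0.25 for selenoproteins and -0.24 for the receptors and related factors. Leaving out 1 array gave medians of -0.21 to -0.14 for glutathione transferases, -0.06 to 0.03 for NAD synthesis and -0.04 to 0.12 for selenium supply. The cause of these shifts was not tested.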
